A study of Mus musculus with 9 samples.

Results

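Claudins are membrane proteins of the tight junction, and the claudins considered here are the 9 that are best known from the tubule of the kidney and from the capsule around the glomerulus. They were chosen by name, as Cldn1, Cldn2, Cldn3, Cldn4, Cldn7, Cldn8, Cldn10, Cldn16 and Cldn19, with no threshold on a measured value. They are 9 of the 32593 genes listed, and all 9 were among the 12507 genes that were tested because 3 or more libraries held them at 1 FPKM or above. FPKM is the authors' level scaled to transcript length and library size, and it is the scale on which different genes are compared below. Another 18 rows carried a claudin symbol.

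RNA-seq of mouse kidney was available for 9 libraries, and the animals of every group had received AngII, the peptide angiotensin II. The CDH16KO-AngII group held 3 libraries of the genotype CDH16 Cre+/Tmemfl/fl, the GRPR-AngII group held 3 libraries of the genotype CDH16 Cre+/GRPRfl/fl, and the AngII group held 3 libraries of the genotype Tmemfl/fl. Cdh16 encodes a cadherin of kidney tubule epithelium, and its promoter is widely used to direct Cre to that epithelium. The labels do not say which Tmem gene is floxed, although the title of the series names STING, whose gene is Sting1. CDH16KO-AngII and AngII share the floxed Tmem genotype and differ in the presence of Cre, whereas GRPR-AngII and AngII differ both in Cre and in the floxed gene, and these cannot be told apart. No group carried Cre without a floxed gene. Cre itself and loss of the floxed gene therefore cannot be told apart in CDH16KO-AngII against AngII either. No group without AngII was analysed here, and age and sex are not given in the labels.

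In the epithelium of the nephron, claudins of neighbouring cells meet in the paracellular space and form either pores or barriers for ions. The set of claudins changes along the tubule, and with it changes which ions can pass between the cells. The proximal tubule is known for the pore former claudin-2, the thick ascending limb for the partners claudin-16 and claudin-19, and the collecting duct for claudin-3, claudin-4, claudin-7 and claudin-8. Claudin-10 is made in forms that differ in their first exon, and one form is selective for anions and another for cations.

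The part of the coding sequence that carries the family signature is shown because the residue after its second cysteine is where the members differ in charge. In claudin-2 the acidic residue there is known to set selectivity for cations, and in claudin-4 the lysine there is known to bear on selectivity for anions. Each stretch is 60 bases long except that of Cldn16, which has 63 bases, and each was read 5′ to 3′ from a coding transcript of GENCODE M21 on GRCm38. Capitals mark the codons of the glycine, leucine and tryptophan that open the signature, of both cysteines, and of the residue after the second cysteine; in the downstream Cldn10 transcript the first of these codons encodes asparagine.
Cldn2: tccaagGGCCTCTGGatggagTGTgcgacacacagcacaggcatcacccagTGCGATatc
Cldn16: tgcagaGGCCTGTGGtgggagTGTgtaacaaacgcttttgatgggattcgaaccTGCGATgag
Cldn10, upstream start: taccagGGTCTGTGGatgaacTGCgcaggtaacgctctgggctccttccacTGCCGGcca
Cldn10, downstream start: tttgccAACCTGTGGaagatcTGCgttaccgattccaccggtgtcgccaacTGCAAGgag
Cldn19: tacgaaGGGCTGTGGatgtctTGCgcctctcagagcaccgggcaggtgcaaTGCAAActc
Cldn1: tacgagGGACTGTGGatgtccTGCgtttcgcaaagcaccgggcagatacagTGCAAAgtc
Cldn7: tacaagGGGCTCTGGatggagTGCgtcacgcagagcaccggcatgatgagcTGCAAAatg
Cldn8: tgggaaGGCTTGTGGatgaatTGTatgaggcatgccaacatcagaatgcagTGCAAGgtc
Cldn4: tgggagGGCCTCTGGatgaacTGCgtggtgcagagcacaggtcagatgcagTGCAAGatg
Cldn3: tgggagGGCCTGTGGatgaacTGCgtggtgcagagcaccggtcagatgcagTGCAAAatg

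The codon after the second cysteine encoded aspartate (GAT) in Cldn2 and Cldn16, 2 of the 9 genes. It encoded lysine (AAA or AAG) in 6 genes, which were Cldn1, Cldn3, Cldn4, Cldn7, Cldn8 and Cldn19. In Cldn10 it encoded arginine (CGG) in the transcript from the upstream start and lysine (AAG) in the transcript from the downstream start. Those Cldn10 transcripts begin at 118787908 and 118854732 on chromosome 14, and the single deposited row of the gene lists transcripts of both starts, so the values below do not separate the forms. The row ends at 118874525, before the end of the downstream transcript at 118875489, and how the authors divided reads between the forms is not known from the sources used here. Over the whole coding sequence, identity between members ran from 44.9% to 69.4% across 36 pairs, with Cldn3 and Cldn4 the most alike at 69.4% and Cldn1 and Cldn7 next at 67.0%. No transcript of another gene shared 50% or more of a member's length at 95% identity.

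Cldn2 is on the X chromosome at 139800828 to 139811386, plus strand, and Cldn10 is on chromosome 14 at 118787908 to 118874525, plus strand. On chromosome 16, Cldn1 lies at 26356642 to 26371841 on the minus strand and Cldn16 at 26463135 to 26482765 on the plus strand, 91.3 kb apart. Cldn8 is on the same chromosome at 88560828 to 88563183, minus strand. On chromosome 5, Cldn4 lies at 134945119 to 134946934 on the minus strand and Cldn3 at 134986214 to 134987472 on the plus strand, 39.3 kb apart. Cldn7 is on chromosome 11 at 69964779 to 69967885, plus strand, and Cldn19 on chromosome 4 at 119255414 to 119262438, plus strand. Coordinates are GRCm38. Cldn3 shares 40 exonic bases with Wbscr25 and Cldn19 shares 90 with Gm12927, both on the opposite strand, and the sources used here do not state whether the authors counted by strand.

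The 9 libraries held 40731748 to 60449117 counts and 11456 to 12276 genes at 1 FPKM or above, and 16.1% to 26.4% of the counts fell on mitochondria-coded genes. Markers of the kidney were present in every library, with Slc34a1, the phosphate transporter of the proximal tubule, at 616 to 1115 FPKM and Umod, the uromodulin of the thick ascending limb, at 397 to 822 FPKM. CPM denotes a count relative to the library total after TMM scaling. Urothelial markers summed to 2.59 to 6.92 CPM in the CDH16KO-AngII libraries, 0.664 to 8.16 CPM in the GRPR-AngII libraries and 4.05 to 6.90 CPM in the AngII libraries. Markers of the thin limb, which belongs to the medulla, summed to 76.6 to 454 CPM in the CDH16KO-AngII libraries, 66.3 to 235 CPM in the GRPR-AngII libraries and 105 to 278 CPM in the AngII libraries. Sting1 was at 2.15, 2.24 and 2.04 CPM in CDH16KO-AngII, 2.90, 2.90 and 2.68 CPM in GRPR-AngII, and 4.62, 1.77 and 5.33 CPM in AngII, so AngII library 2 was below all CDH16KO-AngII libraries. Cdh16 was at 598 to 696 CPM in the CDH16KO-AngII libraries, 526 to 680 CPM in the GRPR-AngII libraries and 617 to 763 CPM in the AngII libraries, and Grpr was not analysed here. Nothing in the labels says that libraries of the same group came from separate animals, so the p-values below reflect the spread among these particular libraries.

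On the FPKM scale, Cldn10 and Cldn2 stood above the other nephron claudins in these kidneys. Over the 9 libraries Cldn10 averaged 52.6 ± 12.8 FPKM and Cldn2 averaged 43.2 ± 19.8 FPKM (SD, n = 9). Then came Cldn8 at 13.2 ± 4.10, Cldn19 at 10.5 ± 3.25, Cldn3 at 9.77 ± 2.57, Cldn7 at 8.32 ± 2.03, Cldn16 at 7.57 ± 1.49, Cldn4 at 6.15 ± 2.45 and Cldn1 at 2.29 ± 0.621 FPKM. Between neighbours in that order, the mean gap exceeded the larger SD at 2 places: Cldn2 was above Cldn8, and Cldn4 above Cldn1, in 9 of 9 libraries each. At the other 6 places the gene of higher mean was above its neighbour in 5 to 7 of the 9 libraries, within the spread. Among the 12507 tested genes, the mean FPKM of Cldn10 was above that of 94.2% of genes and that of Cldn1 above 29.6%.

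**Figure D1:**
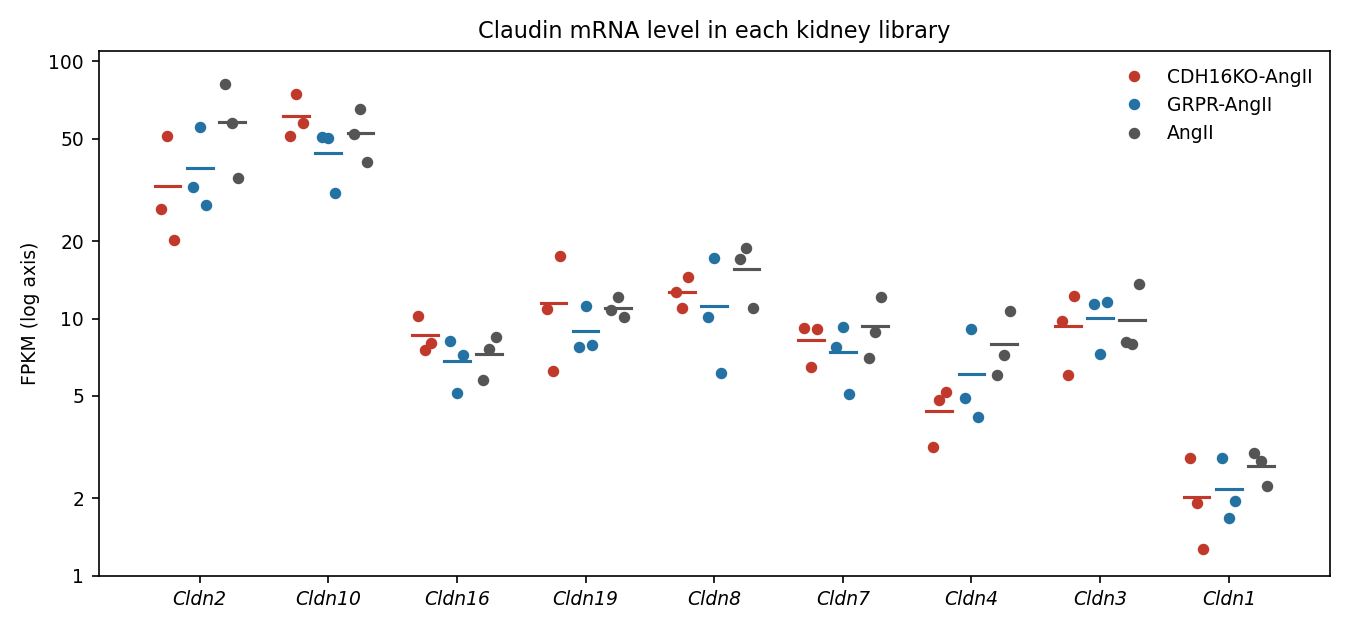
FPKM (log axis) of the 9 nephron claudins in each kidney library, with 3 points per group in the order CDH16KO-AngII, GRPR-AngII and AngII and a bar at each group mean. Cldn4 in CDH16KO-AngII, at 3.16 to 5.19 FPKM, lies below all AngII libraries, at 6.04 to 10.72 FPKM, and the points of most other genes overlap between groups.

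The 9 genes made up 84.5% to 91.3% of the summed FPKM of all claudin rows in a library. Cldn2 and Cldn10 together made up 45.6% to 66.5%. Cldn10 took 31.7%, 39.4% and 35.2% of the claudin sum in CDH16KO-AngII, 32.4%, 26.8% and 25.6% in GRPR-AngII, and 24.8%, 31.5% and 24.4% in AngII. The CDH16KO-AngII libraries were thus all above the AngII libraries in that share, but the nearest values, 31.7% and 31.5%, almost met. The FPKM of Cldn10 itself overlapped between these groups. How often genes separate on such a share scale was not computed. Cldn2 took 16.4%, 27.1% and 12.3% in CDH16KO-AngII, 20.8%, 29.6% and 23.2% in GRPR-AngII, and 39.0%, 27.8% and 21.2% in AngII, with overlap among all groups. A share depends on every claudin in the sum, so a higher share of Cldn10 and a lower share of Cldn2 are not separate measurements.

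**Figure D2:**
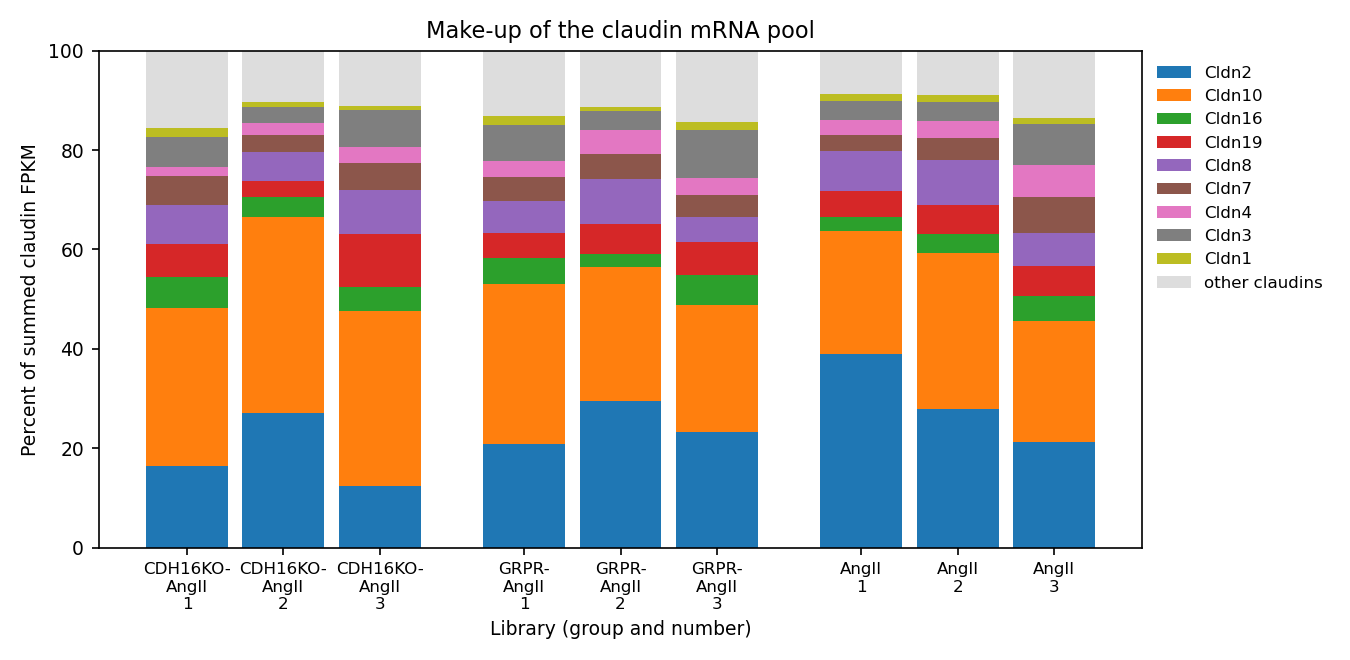
Percent of the summed FPKM of all claudin rows taken by each nephron claudin in each library (stacked bars, CDH16KO-AngII, GRPR-AngII, then AngII). Cldn2 and Cldn10 fill 45.6% to 66.5% of every bar, and the other claudins, in grey, fill the remainder above the 9 genes.

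No nephron claudin passed the test in any comparison. With edgeR's quasi-likelihood test and Benjamini-Hochberg adjustment over all genes tested, adjusted p ran from 0.491 to 0.986 for CDH16KO-AngII against AngII, from 0.761 to 0.997 for GRPR-AngII against AngII, and from 0.834 to 0.998 for GRPR-AngII against CDH16KO-AngII. The background was low as well. Of the 12507 tested genes, 21 (0.168%) were called in CDH16KO-AngII against AngII and 18 (0.144%) in GRPR-AngII against CDH16KO-AngII. In GRPR-AngII against AngII edgeR called 0 (0%), with 843 genes (6.74%) at an unadjusted p under 0.05, while DESeq2 called 45 and limma 0. At an unadjusted edgeR p under 0.05, 1 of the 9 claudins was found in CDH16KO-AngII against AngII, where 8.45% of all tested genes were, and 0 of 9 in each of the other comparisons, where 6.74% and 6.24% were. Both comparisons with AngII use the same 3 AngII libraries, so their values are not independent of each other.

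The directions of the fitted differences were mixed. For CDH16KO-AngII against AngII, the log2 fold change was negative for 6 claudins and positive for 3, with a median of −0.13, beside a median of 0.01 and 48.1% negative over all tested genes. For GRPR-AngII against AngII it was negative for 8 and positive for 1, with a median of −0.24, beside −0.01 and 51.0% negative over all tested genes. For GRPR-AngII against CDH16KO-AngII it was negative for 5 and positive for 4, with a median of −0.15, beside −0.01 and 52.6% negative. The 95% intervals were wide: over the 9 genes and 3 comparisons they reached from −1.68 to 1.14, so an adjusted p above the threshold does not show that the groups were alike. In whole kidney, fewer cells of a segment and less RNA per cell cannot be told apart.

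**Figure D3:**
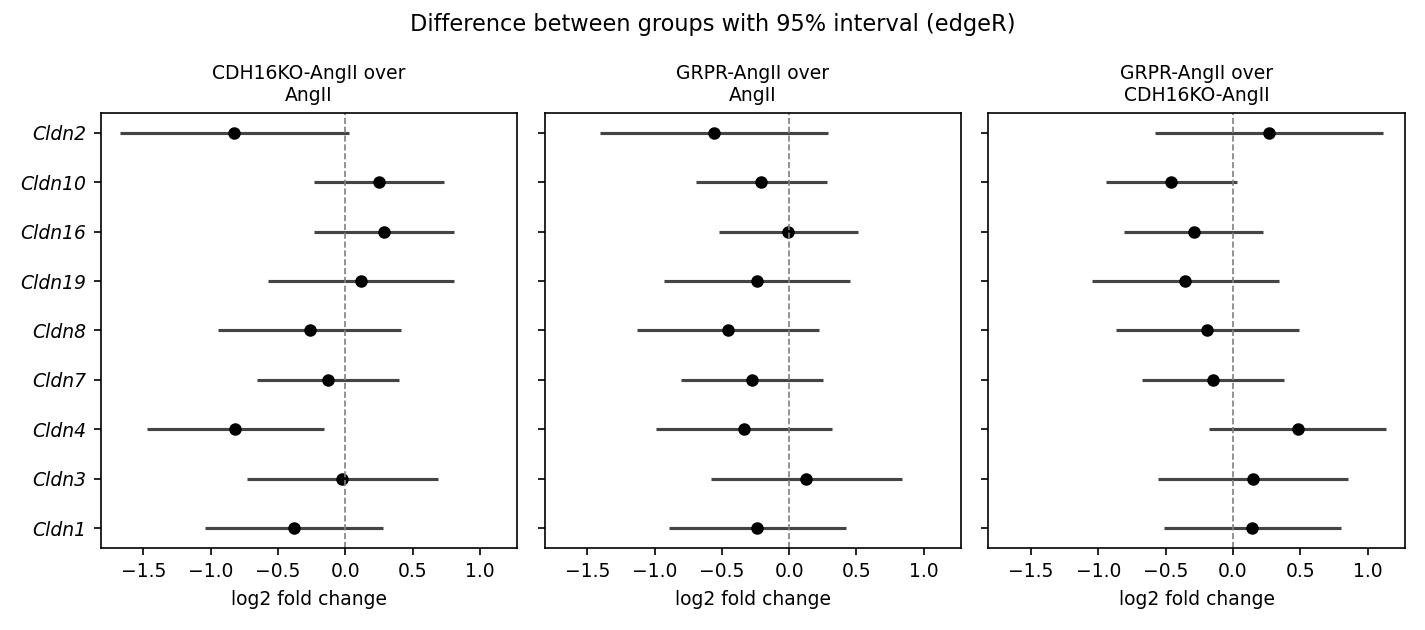
edgeR log2 fold changes (points) with 95% intervals (lines) of the 9 nephron claudins for CDH16KO-AngII over AngII, GRPR-AngII over AngII, and GRPR-AngII over CDH16KO-AngII. The interval of Cldn4 in CDH16KO-AngII over AngII, −1.47 to −0.16, is the one that does not reach 0, and no adjusted p is under 0.05.

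Cldn2 (ENSMUSG00000047230) encodes the pore for cations and water in the leaky proximal tubule. It was at 26.55, 51.46 and 20.18 FPKM in CDH16KO-AngII, 32.54, 55.69 and 27.73 FPKM in GRPR-AngII, and 81.94, 57.40 and 35.33 FPKM in AngII. The lowest AngII library lay below the highest library of each other group, so the ranges overlapped. Its mean was 32.7 ± 16.5 FPKM in CDH16KO-AngII, 38.7 ± 14.9 FPKM in GRPR-AngII and 58.2 ± 23.3 FPKM in AngII (SD, n = 3 each). The log2 fold change was −0.82 (SE 0.38, 95% interval −1.68 to 0.03, edgeR adjusted p = 0.602) for CDH16KO-AngII against AngII. For GRPR-AngII against AngII it was −0.56 (SE 0.38, 95% interval −1.40 to 0.29, edgeR adjusted p = 0.767). Within CDH16KO-AngII, library 2 was the highest for Cldn2; without it the log2 fold change against AngII was −1.27 (edgeR adjusted p = 0.127), and without AngII library 1, the highest of all, it was −0.46 (edgeR adjusted p = 0.955). Across all alternatives its adjusted p ran from 0.127 to 0.955.

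Markers of the proximal tubule varied beside Cldn2. The mean log2 CPM of the 10 markers was 8.83, 9.32 and 8.78 in CDH16KO-AngII, 9.15, 9.29 and 9.26 in GRPR-AngII, and 9.35, 9.29 and 9.01 in AngII. CDH16KO-AngII library 2, with the most Cldn2 of its group, also had the highest marker mean of its group. Of the 10 markers, 9 had a negative log2 fold change in CDH16KO-AngII against AngII, with a median of −0.25, and none was called. Relative to the marker mean, Cldn2 was at −2.09, −1.68 and −2.38 in CDH16KO-AngII, −2.10, −1.55 and −2.31 in GRPR-AngII, and −0.96, −1.48 and −1.94 in AngII on the log2 scale. These ranges overlapped too. Mitochondria-coded genes took 23.4%, 16.1% and 26.4% of the counts in CDH16KO-AngII, 19.2%, 19.1% and 24.6% in GRPR-AngII, and 21.5%, 17.2% and 17.4% in AngII. With these genes left out of the fit, the log2 fold change of Cldn2 was −0.84 (edgeR adjusted p = 0.602) for CDH16KO-AngII against AngII.

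Cldn10 (ENSMUSG00000022132), expressed in the proximal tubule and in the thick ascending limb, was at 51.33, 74.72 and 57.85 FPKM in CDH16KO-AngII, 50.66, 50.43 and 30.65 FPKM in GRPR-AngII, and 52.09, 65.03 and 40.71 FPKM in AngII. The 3 GRPR-AngII libraries were below the 3 CDH16KO-AngII libraries, the nearest pair being 50.66 and 51.33 FPKM. Cldn10 was the 1 of the 9 claudins whose ranges did not overlap between these groups; 9.96% of all tested genes had such ranges, 5.3% with GRPR-AngII lower. The log2 fold change was −0.46 (SE 0.22, 95% interval −0.94 to 0.03, edgeR adjusted p = 0.834) for GRPR-AngII against CDH16KO-AngII. It was 0.25 (SE 0.22, edgeR adjusted p = 0.740) for CDH16KO-AngII against AngII and −0.21 (SE 0.22, edgeR adjusted p = 0.837) for GRPR-AngII against AngII.

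Set against proximal tubule markers, Cldn10 was at −1.51, −1.51 and −1.23 in CDH16KO-AngII, −1.82, −2.05 and −2.52 in GRPR-AngII, and −1.98, −1.66 and −2.10 in AngII on the log2 scale. All CDH16KO-AngII libraries were above all libraries of both other groups. Set against thick ascending limb markers it was at −2.17, −1.08 and −2.04 in CDH16KO-AngII, −1.80, −1.52 and −2.14 in GRPR-AngII, and −2.02, −1.81 and −2.02 in AngII, with overlap among all groups. The separation thus depended on the segment chosen for the scale, and neither was tested. The share of all genes that separate on such scales was not computed.

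**Figure D4:**
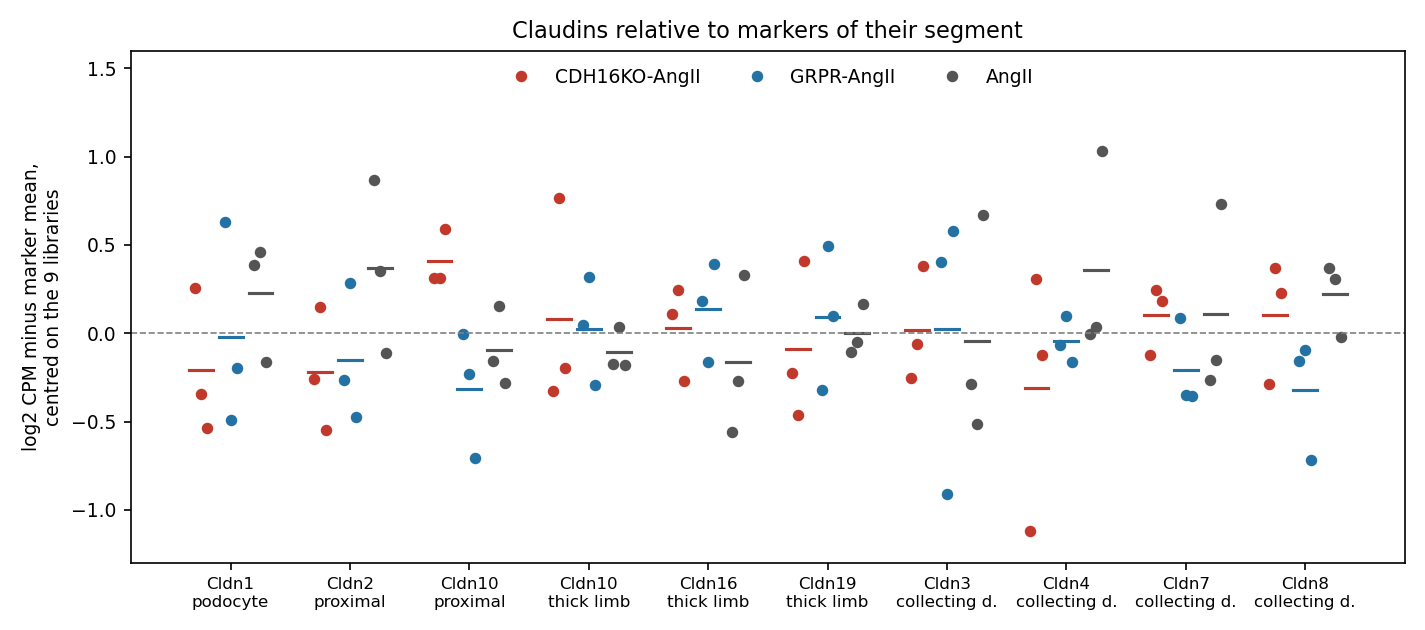
log2 CPM of each claudin minus the mean log2 CPM of the markers of its segment, centred on the 9 libraries, in CDH16KO-AngII, GRPR-AngII and AngII (3 points each, bar at the mean). Cldn10 on the proximal tubule scale is highest in all 3 CDH16KO-AngII libraries. Cldn8 on the collecting duct scale is lower in the 3 GRPR-AngII libraries than in the 3 AngII libraries. All other genes and scales overlap between groups, and no separation was tested.

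Cldn16 (ENSMUSG00000038148) and Cldn19 (ENSMUSG00000066058) encode partners that are needed for the reabsorption of magnesium and calcium in the thick ascending limb, and loss of either gene in humans causes wasting of these ions. Cldn16 was at 10.23, 7.57 and 8.05 FPKM in CDH16KO-AngII, 8.15, 5.12 and 7.21 FPKM in GRPR-AngII, and 5.75, 7.64 and 8.45 FPKM in AngII. Its spread between libraries was the smallest of the 9 genes. Its log2 fold change was 0.29 (95% interval −0.23 to 0.81, edgeR adjusted p = 0.725) for CDH16KO-AngII against AngII and −0.01 (95% interval −0.52 to 0.51, edgeR adjusted p = 0.997) for GRPR-AngII against AngII.

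Cldn19 was at 10.85, 6.24 and 17.45 FPKM in CDH16KO-AngII, 7.72, 11.22 and 7.92 FPKM in GRPR-AngII, and 10.78, 12.11 and 10.17 FPKM in AngII. The CDH16KO-AngII libraries held both the lowest and the highest value of all 9. Its log2 fold change for CDH16KO-AngII against AngII was 0.12 (95% interval −0.58 to 0.81, edgeR adjusted p = 0.912), and it was −0.35 without CDH16KO-AngII library 3. Thin limb markers were also highest in that library of the group, with a mean log2 CPM of 3.91, 2.56 and 4.51 in CDH16KO-AngII libraries 1 to 3. The mean of the thick ascending limb markers was 9.5, 8.89 and 9.59, so libraries 1 and 3 were close there. Their part in the Cldn19 values was not tested.

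The ratio of Cldn16 to Cldn19 in FPKM was 0.943, 1.21 and 0.461 in CDH16KO-AngII, 1.06, 0.456 and 0.910 in GRPR-AngII, and 0.533, 0.631 and 0.831 in AngII. In whole kidney this ratio differed 2.66-fold between the lowest and the highest library, and libraries of 1 group spanned most of that range. The ratio within cells of the thick ascending limb was not measured. All 5 thick ascending limb markers had a negative log2 fold change in GRPR-AngII against AngII, with a median of −0.35, and none was called. Set against these markers, Cldn16 was at −5.59, −5.46 and −5.97 in CDH16KO-AngII, −5.52, −5.87 and −5.31 in GRPR-AngII, and −6.26, −5.97 and −5.37 in AngII on the log2 scale. Cldn19 on the same scale was at −3.68, −3.92 and −3.05 in CDH16KO-AngII, −3.78, −2.96 and −3.36 in GRPR-AngII, and −3.57, −3.51 and −3.29 in AngII. The groups overlapped for both genes.

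Cldn4 (ENSMUSG00000047501), a collecting duct claudin known to work with claudin-8 in the passage of chloride between cells, was lower in every CDH16KO-AngII library than in every AngII library. It was at 3.16, 4.80 and 5.19 FPKM in CDH16KO-AngII, 4.92, 9.14 and 4.15 FPKM in GRPR-AngII, and 6.04, 7.20 and 10.72 FPKM in AngII. Ranges that do not overlap were found in 12.2% of all tested genes in CDH16KO-AngII against AngII, and 5.5% had the CDH16KO-AngII libraries lower; of the 9 claudins it was 1. Its mean was 4.38 ± 1.08 FPKM in CDH16KO-AngII, 6.07 ± 2.69 FPKM in GRPR-AngII and 7.99 ± 2.44 FPKM in AngII (SD, n = 3 each). The log2 fold change was −0.82 (SE 0.30, 95% interval −1.47 to −0.16), which is 1.76-fold lower, with an unadjusted edgeR p of 0.0197 and an adjusted p of 0.491; by p it ranked 502 among the tested genes. For GRPR-AngII against AngII it was −0.34 (SE 0.29, edgeR adjusted p = 0.804), with overlapping ranges. Leaving out each library in turn kept the log2 fold change of CDH16KO-AngII against AngII between −0.99 and −0.58, and its adjusted p over all alternatives ran from 0.216 with DESeq2 to 0.856.

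Cldn8 (ENSMUSG00000050520), another collecting duct claudin and the partner that brings claudin-4 to the junction, was at 12.64, 10.96 and 14.49 FPKM in CDH16KO-AngII, 10.10, 17.18 and 6.15 FPKM in GRPR-AngII, and 17.05, 18.89 and 11 FPKM in AngII. Its log2 fold change was −0.27 (95% interval −0.94 to 0.41, edgeR adjusted p = 0.796) for CDH16KO-AngII against AngII. For GRPR-AngII against AngII it was −0.46 (95% interval −1.13 to 0.22, edgeR adjusted p = 0.761). Ranges overlapped in both. In GRPR-AngII against AngII, 0 of the 9 claudins had ranges that do not overlap, beside 14% of all tested genes, 7.2% with GRPR-AngII lower. Cldn7 (ENSMUSG00000018569), found in the basolateral membrane as well as at the junction, was at 9.19, 6.46 and 9.08 FPKM in CDH16KO-AngII, 7.74, 9.30 and 5.10 FPKM in GRPR-AngII, and 7.03, 8.86 and 12.14 FPKM in AngII. Its log2 fold change was −0.13 (95% interval −0.65 to 0.40) for CDH16KO-AngII against AngII and −0.28 (95% interval −0.80 to 0.25) for GRPR-AngII against AngII. Cldn3 (ENSMUSG00000070473), a sealing claudin of the distal nephron, was at 9.78, 6.04 and 12.24 FPKM in CDH16KO-AngII, 11.37, 7.26 and 11.64 FPKM in GRPR-AngII, and 8.11, 7.96 and 13.57 FPKM in AngII. Each group held both low and high libraries for Cldn3. Its log2 fold change was −0.02 (95% interval −0.73 to 0.69) for CDH16KO-AngII against AngII and 0.13 (95% interval −0.58 to 0.84) for GRPR-AngII against AngII.

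The mRNA of 7 markers of principal cells of the collecting duct also varied within groups. Their mean log2 CPM was 5.63, 4.72 and 5.36 in CDH16KO-AngII, 5.19, 5.81 and 5.19 in GRPR-AngII, and 5.42, 5.56 and 5.08 in AngII. Aqp2, the water channel regulated by vasopressin, was at 330.95, 57.84 and 115.94 FPKM in CDH16KO-AngII, 115.69, 289.32 and 140.73 FPKM in GRPR-AngII, and 96.31, 147.68 and 79.15 FPKM in AngII. CDH16KO-AngII library 1 and GRPR-AngII library 2 were the highest. Set against these markers, Cldn4 was at −2.74, −1.31 and −1.74 in CDH16KO-AngII, −1.69, −1.52 and −1.78 in GRPR-AngII, and −1.62, −1.58 and −0.58 in AngII on the log2 scale. On this scale the ranges of CDH16KO-AngII and AngII overlapped for Cldn4, as CDH16KO-AngII library 2 was above 2 AngII libraries. The mean of CDH16KO-AngII stayed lower, with a difference of −0.67 from AngII. Cldn8 on the same scale was at −0.44, 0.21 and 0.07 in CDH16KO-AngII, −0.31, −0.25 and −0.87 in GRPR-AngII, and 0.22, 0.15 and −0.18 in AngII. All GRPR-AngII libraries were below all AngII libraries for Cldn8 on that scale, which was not so for its FPKM. This was not tested, and the share of all genes that separate on such a scale was not computed. In CPM, 14% of all tested genes had ranges that do not overlap in GRPR-AngII against AngII.

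Ratios among the collecting duct claudins were compared with exact two-sided permutation tests over libraries, for which 3 against 3 libraries cannot give a p below 0.1. With the Cldn16 to Cldn19 ratio these were 4 ratios in 3 comparisons, 12 tests in all. The ratio of Cldn4 to Cldn8 was 0.25, 0.438 and 0.358 in CDH16KO-AngII, 0.487, 0.532 and 0.675 in GRPR-AngII, and 0.354, 0.381 and 0.9745 in AngII. The GRPR-AngII libraries were all above the CDH16KO-AngII libraries in that ratio, with a log2 difference of 0.72, an exact permutation p of 0.1 and an adjusted p of 0.9. The ratio of Cldn3 to Cldn8 spanned 0.421 to 1.89 over the 9 libraries and that of Cldn7 to Cldn8 spanned 0.412 to 1.10. All 12 tests had an adjusted exact permutation p of 0.9.

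Cldn1 (ENSMUSG00000022512), known in the kidney from the parietal epithelium of the glomerular capsule, was the lowest of the 9 genes. It was at 2.86, 1.92 and 1.27 FPKM in CDH16KO-AngII, 2.87, 1.67 and 1.96 FPKM in GRPR-AngII, and 3, 2.79 and 2.24 FPKM in AngII. The log2 fold change was −0.38 (95% interval −1.04 to 0.28, edgeR adjusted p = 0.713) for CDH16KO-AngII against AngII. It was −0.24 (95% interval −0.89 to 0.42, edgeR adjusted p = 0.862) for GRPR-AngII against AngII. Podocyte markers, the glomerular cell type listed beside it, summed to 247 to 305 CPM in the CDH16KO-AngII libraries, 246 to 326 CPM in the GRPR-AngII libraries and 275 to 315 CPM in the AngII libraries.

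Variation between libraries differed among the claudins. The SD of log2 CPM over the 9 libraries was 0.62 for Cldn2, above that of 96.0% of tested genes, and 0.49 for Cldn4, above that of 91.6%. It was smallest for Cldn16, at 0.29, above that of 65.7% of tested genes, and the median of all tested genes was 0.24. For these most variable members, Cldn2 and Cldn4, the genes of most similar pattern were those with the smallest root mean square difference of centred log2 CPM over the 9 libraries. For Cldn2 they were Etfdh (0.14), an electron carrier of mitochondrial fatty acid oxidation, Arsb (0.18), a lysosomal sulfatase, and Zdhhc9 (0.18), a palmitoyltransferase. For Cldn4 they were Vsir (0.22), an immune checkpoint protein, Apobec3 (0.23), a cytidine deaminase that restricts retroviruses, and Sema4c (0.24), a semaphorin. The 9 libraries share groups and depth with both genes of each pair, so likeness is a description.

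Of the 18 other claudin rows, 3 passed the filter. Cldn5, the endothelial claudin, averaged 8.29 ± 2.15 FPKM, Cldn12 averaged 6.84 ± 1.26 FPKM and Cldn15 averaged 3.70 ± 0.867 FPKM (SD, n = 9 each), and the remaining 15 averaged at most 0.413 FPKM. Cldn5 was at 9.60 ± 3.04 FPKM in CDH16KO-AngII, 8.04 ± 1.04 FPKM in GRPR-AngII and 7.24 ± 1.94 FPKM in AngII (SD, n = 3 each), and edgeR adjusted p was 0.635 for CDH16KO-AngII against AngII. Cldn12 was at 6.43 ± 1.77 FPKM in CDH16KO-AngII, 6.55 ± 1.33 FPKM in GRPR-AngII and 7.53 ± 0.581 FPKM in AngII (SD, n = 3 each), with an edgeR adjusted p of 0.746 for CDH16KO-AngII against AngII. Cldn14, the inhibitor of the claudin-16 and claudin-19 pore that the calcium-sensing receptor induces, was under the filter. It was listed at 0, 0.20 and 0.21 FPKM in CDH16KO-AngII, at 0.05, 0.02 and 0.09 FPKM in GRPR-AngII, and at 0 in all 3 AngII libraries. Among the claudins under the filter, Cldn11, Cldn13, Cldn17, Cldn34b1 and Cldn34c3 were likewise at 0 in all 3 AngII libraries. Each of these was above 0 in some library of the other groups.

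The claudins work in a complex with other junction proteins, and no member of 3 lists of such proteins was called in any comparison. Of 14 listed membrane proteins of the tight junction 13 were tested, and their log2 fold changes were positive for 4 and negative for 9 in CDH16KO-AngII against AngII and positive for 1 and negative for 12 in GRPR-AngII against AngII, with medians of −0.08 and −0.15. In GRPR-AngII against CDH16KO-AngII 3 were positive and 10 negative, with a median of −0.12. Marveld2, the tricellulin that seals the points where cells meet, had the smallest p among them. It averaged 16.4 ± 2.43 CPM in the CDH16KO-AngII libraries and 12.1 ± 0.498 CPM in the AngII libraries (SD, n = 3 each), which is 0.44 higher on the log2 scale (edgeR adjusted p = 0.462). In GRPR-AngII it averaged 11 ± 0.889 CPM, and its log2 fold change against CDH16KO-AngII was −0.58 (edgeR adjusted p = 0.282). Ocln, the occludin, averaged 10.3 ± 1.78 CPM in the GRPR-AngII libraries and 15.6 ± 4.99 CPM in the AngII libraries (SD, n = 3 each), with a log2 fold change of −0.59 (edgeR adjusted p = 0.732).

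The other named membrane proteins were Jam2, a junctional adhesion molecule, whose log2 fold change was −0.49 in CDH16KO-AngII against AngII, and Epcam, which binds and stabilises claudin-7, at −0.63 in GRPR-AngII against AngII. Among 19 tested scaffold and polarity proteins, signs were 10 positive and 9 negative in CDH16KO-AngII against AngII, and 9 positive and 10 negative in GRPR-AngII against AngII, with medians of 0.02 and −0.04. In GRPR-AngII against CDH16KO-AngII 8 were positive and 11 negative, with a median of −0.05. Crb3, an apical polarity protein, differed from AngII by a log2 value of 0.36 in CDH16KO-AngII (edgeR adjusted p = 0.573) and 0.26 in GRPR-AngII (edgeR adjusted p = 0.747). The others with the smallest p were the scaffold Afdn, at 0.23 in CDH16KO-AngII against AngII, and the polarity kinase Prkci, at −0.26 in GRPR-AngII against AngII. In GRPR-AngII against CDH16KO-AngII they were Amotl2, at −0.32, and Tjp1, the ZO-1 that anchors claudins to actin, at −0.24.

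Among 19 tested regulators of claudins, 7 had positive and 12 negative log2 fold changes in CDH16KO-AngII against AngII, and 6 had positive and 13 negative ones in GRPR-AngII against AngII, with medians of −0.09 and −0.10. In GRPR-AngII against CDH16KO-AngII 8 were positive and 11 negative, with a median of −0.11. Egf, which is also among the thick ascending limb markers above, had a log2 fold change of −0.53 (edgeR adjusted p = 0.732) in GRPR-AngII against AngII. Wnk1, a kinase of salt transport, was at 0.35 (edgeR adjusted p = 0.588) and Tfeb, a regulator of lysosomal genes, at 0.37 (edgeR adjusted p = 0.590) in CDH16KO-AngII against AngII.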

How the data were processed

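Kidney RNA of 9 libraries in 3 groups of 3 was measured by RNA-seq; total RNA went into SMARTER mRNA-Seq libraries, per the labels' protocols. GRCm38 and mm10 are named in the submitters' processing notes; aligner, counter and strand setting were not given in the sources used here. Per the file headers, the deposited table gives an FPKM value and a count per gene and library, 32593 genes in all, with no column of a library outside the series. The counts deposited by the authors were treated as estimated counts that had been rounded to whole numbers, since the value 4 was more frequent than 3 and 5 in each of the 9 libraries. FPKM as deposited is scaled by transcript length and library size, and was used unchanged.

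The quasi-likelihood test of edgeR 4.0.16 (R 4.3.3, TMM scaling) was fitted to all 9 libraries without a block, on the 12507 genes with 1 FPKM or more in 3 or more libraries, with Benjamini-Hochberg adjustment and a threshold of 0.05. Intervals of 95% came from the standard error and the total degrees of freedom of that fit, which are residual plus prior ones. CPM is scaled by TMM, and 0.5 CPM was added before log2 for marker means. Ratios of FPKM were tested with exact permutations (scipy 1.17.1). DESeq2 1.42.0, limma 3.58.1 on log2(FPKM + 1) and log2(FPKM + 0.1), other filters and scalings, and fits without each library were alternatives; dividing the counts by 4 was added after seeing the data. The fit was tested on simulated data, 1 set for each comparison. It called 1.49% to 5.97% of genes changed 1.5-fold, 44.8% to 50.7% of those changed 2-fold and 93.9% to 95.5% of those changed 4-fold. Coding stretches came from GENCODE M21 transcripts and shared sequence from BLAST+ 2.17.0.

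The members, the marker lists and the lists of junction proteins and regulators were chosen with earlier results of these data known. From each list and comparison, the 2 genes of smallest p are named, except 1 gene that is not reported here, and for the 2 most variable members the 3 genes of most similar pattern. Library numbers were not used to pair the samples in the main fit. Replicates of a group differed by far more than counting noise, and none was a duplicate. The column headers spell CDH16KO as CHD16KO.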

Additional observations from a re-analysis of the deposited data

How the results depend on the processing

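No nephron claudin was called in any of the 3 comparisons under any alternative run, and the lowest adjusted p among them all was 0.127, for Cldn2 without CDH16KO-AngII library 2 (edgeR). Outside the fits that left out a library, 346 values kept their direction and side of the threshold and 5 turned. Cldn19 in CDH16KO-AngII against AngII, 0.12 on the log2 scale, turned to -0.041 with limma on log2(FPKM + 1) and -0.054 with limma on log2(FPKM + 0.1). Cldn16 in GRPR-AngII against AngII, -0.01, turned to 0.0024 with no filter, 0.0028 with a minimum of 0.1 FPKM and 0.0038 with filterByExpr. The cause was not tested. Leaving out 1 library turned 31 values and left the direction of 284, with these ranges of log2 fold change where a value turned. In CDH16KO-AngII against AngII, Cldn19 ran from -0.35 to 0.43, Cldn3 from -0.29 to 0.24 and Cldn7 from -0.27 to 0.075. In GRPR-AngII against AngII, Cldn16 ran from -0.13 to 0.20 and Cldn3 from -0.052 to 0.39. In GRPR-AngII against CDH16KO-AngII, Cldn1 ran from -0.093 to 0.49, Cldn2 from -0.023 to 0.72, Cldn3 from -0.10 to 0.42, Cldn7 from -0.32 to 0.030, Cldn8 from -0.58 to 0.079 and Cldn19 from -0.67 to 0.11. The log2 ratio of Cldn16 to Cldn19 ran from -0.021 to 0.58 (GRPR-AngII against AngII) and -0.49 to 0.28 (GRPR-AngII against CDH16KO-AngII). That of Cldn3 to Cldn8 ran from -0.11 to 0.67 (CDH16KO-AngII against AngII) and -0.045 to 1.04 (GRPR-AngII against CDH16KO-AngII). That of Cldn4 to Cldn8 ran from -0.12 to 0.61 (GRPR-AngII against AngII). That of Cldn7 to Cldn8 ran from -0.16 to 0.55 (CDH16KO-AngII against AngII), -0.038 to 0.67 (GRPR-AngII against AngII) and -0.0024 to 0.31 (GRPR-AngII against CDH16KO-AngII).

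Counts of all genes called depended on the settings. DESeq2 called 210, 45 and 175 genes in CDH16KO-AngII against AngII, GRPR-AngII against AngII and GRPR-AngII against CDH16KO-AngII, where edgeR called 21, 0 and 18. Leaving out 1 library gave edgeR counts of 0 to 42, 0 to 2 and 0 to 50. For GRPR-AngII against CDH16KO-AngII, edgeR called 41 with no filter and 9 with only the 2 groups compared in the fit.

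Correlations did not settle whether the replicate numbers pair the samples. Deviations of same-numbered libraries correlated at -0.10 to 0.24. In the comparisons with AngII not every library correlated best with its own number, whereas in GRPR-AngII against CDH16KO-AngII every one did. With the replicate number as a block, 0 claudins were called in each comparison, all genes called numbered 26, 0 and 13, and for CDH16KO-AngII against AngII Cldn4 was at -0.83 (edgeR adjusted p = 0.240) and Cldn2 at -0.86 (edgeR adjusted p = 0.260).

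With 3 libraries a group and a spread above that of the median gene, the intervals of these genes are too wide to tell modest differences from none.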

Other observations

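The ratio of Cldn2 to Cldn10, the claudins of highest FPKM, was computed after their values had been seen and was not tested. It was 0.517, 0.689 and 0.349 in CDH16KO-AngII, 0.642, 1.10 and 0.905 in GRPR-AngII, and 1.57, 0.883 and 0.868 in AngII. All CDH16KO-AngII libraries were below all AngII libraries, and the GRPR-AngII libraries overlapped with both other groups. Neither Cldn2 nor Cldn10 was called in CDH16KO-AngII against AngII, where their log2 fold changes were −0.82 and 0.25. The share of all gene pairs whose ratio separates groups in this way was not computed.

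Markers of the distal convoluted and connecting tubule, where Trpv5 and Trpm6 take up calcium and magnesium through the cells, had a mean log2 CPM of 6.05, 6.30 and 5.76 in CDH16KO-AngII, 6.03, 5.97 and 5.75 in GRPR-AngII, and 5.44, 5.51 and 5.64 in AngII. That mean was above all AngII libraries in every CDH16KO-AngII and GRPR-AngII library. The mean of the intercalated cell markers went the other way in CDH16KO-AngII. It was 5.20, 5.21 and 5.14 there, below all AngII libraries, at 5.46, 5.36 and 5.51. In GRPR-AngII the intercalated mean overlapped with AngII. Of all tested genes, taken singly and in either direction, 12.2% had CPM ranges that do not overlap in CDH16KO-AngII against AngII. In GRPR-AngII against AngII it was 14%. The matching share for means of gene lists was not computed. The single markers of the distal convoluted and connecting tubule did not all share the separation of their mean. In FPKM, Pvalb, Trpm6 and Slc8a1 were above all AngII libraries in every CDH16KO-AngII and GRPR-AngII library. Pvalb was at 52.82, 33.68 and 17.95 FPKM in CDH16KO-AngII, 22.85, 16.64 and 14.44 FPKM in GRPR-AngII, and 7.1, 13.7 and 12.12 FPKM in AngII. Trpv5 was the negative one, at 1.86, 3.09 and 1.97 FPKM in CDH16KO-AngII, 2.65, 2.49 and 1.35 FPKM in GRPR-AngII, and 2.88, 2.96 and 3.5 FPKM in AngII. Slc12a3, the sodium chloride cotransporter, and Calb1, a calcium-binding protein, overlapped between the groups. The median log2 fold change of the 6 markers was 0.53 in CDH16KO-AngII against AngII and 0.38 in GRPR-AngII against AngII, 1 of 6 was negative in each, and none was called by edgeR. These markers were chosen with earlier results of these data known, and the 2 comparisons share the AngII libraries.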
